A study of Mus musculus with 117 samples.

Results

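Normal mouse stomach was represented by 7 arrays, 3 of Prom1-positive and 4 of Prom1-negative cells, out of 117 samples in the series. The samples were chosen by their titles and labels, which give the tissue and the Prom1 status, and no measured value was used. The stomachs came from C57BL/6 mice. They were dissociated into single cells, cells bound by anti-Prom1 MicroBeads (magnetic beads from Miltenyi Biotec) were parted from cells that were not bound, and total RNA was taken from each with a PicoPure kit. The beads were applied to all cells of the organ, with no other marker named, so each group can hold epithelial, connective tissue, muscle, blood and nerve cells. The series mentions conditional Prom1 mutants, and the labels of these 7 samples give no genotype, age or sex. They are labelled as normal, and no treatment is named. Positive samples carry the title numbers 1, 2 and 3. Negative samples carry 1, 2, 2 and 3, so the samples are named here by the codes in their titles, which are lqz326, lqz330 and lqz332 for positive cells and lqz231, lqz239, lqz298 and lqz331 for negative cells. Values for single samples are given in that order throughout. Nothing in the labels says whether the samples of a group are separate animals. Every p-value thus measures only the spread between samples, which may be technical.

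Prom1 encodes prominin-1, a glycoprotein with several membrane-spanning stretches that sits on membrane protrusions and often serves to mark stem cells. The glands of the mouse stomach are renewed from progenitors in the isthmus and, in the antrum, also from cells near the gland base that carry the Wnt receptor Lgr5. Their offspring include surface and neck mucous cells, acid-secreting parietal cells, enzyme-secreting chief cells, hormone-secreting endocrine cells and chemosensory tuft cells. Wnt signals, which act through beta-catenin and TCF factors, maintain the Lgr5-positive cells and switch on feedback genes such as Axin2.

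The values are log2 array signals as the authors deposited them, so a difference of 1 is a doubling of signal. Positive samples had upper quartiles of 6.14, 5.62 and 5.95, against 6.19, 5.05, 6.09 and 6.35 in the negative samples. Negative sample lqz239 stood apart from the rest. Its array correlated with the other 6 at 0.690 to 0.730, whereas those 6 correlated with one another at 0.909 to 0.970. Its Gapdh signal was also tilted further towards the 3' end of the transcript. The 3' probe set exceeded the 5' one by 2.17 (log2), against 0.598 to 1.26 on the other arrays. Results are therefore given with and without sample lqz239. An array median lay between 3.63 and 4.01 over the series, and a level below it can be background, in which case the size of the difference is uncertain. Fewer cells of a type and less RNA per cell cannot be told apart in such bulk samples.

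The transcript of the sorted protein was examined first. Prom1 had log2 signals of 12.06, 11.72 and 11.78 in the positive samples, against 9.12, 10.57, 10.20 and 10.93 in the negative samples. Every positive sample lay above every negative one, yet the negative samples were also far above the array median. The difference was 1.65 (SE 0.43, adjusted p = 0.0189) on the log2 scale, or 3.13-fold, by limma with Benjamini-Hochberg adjustment. Without sample lqz239 it was 1.77 (adjusted p = 0.0144). It was not called without negative sample lqz231, positive sample lqz326, positive sample lqz330 or positive sample lqz332 (adjusted p = 0.0868, 0.0783, 0.0553 and 0.0529). Its difference was at the 98.0 percentile of 14081 genes, so many transcripts differed more between the groups than that of the sorted protein.

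Over all genes, limma called 447 of 14081 (3.17%) at an adjusted p under 0.05, with 322 higher (2.29%) and 125 lower (0.888%) in positive cells. At an unadjusted p under 0.05 were 2303 genes (16.4%). The spread in this test was estimated over 51 sorted samples of 6 tissues. In a fit of the 7 stomach samples alone limma called 0 genes, with 541 at an unadjusted p under 0.05, and without sample lqz239 it called 1 gene, with 1741 at an unadjusted p under 0.05. The calls below therefore rest on a spread borrowed from the other tissues. The direction of the whole set turned on sample lqz239. Without it 637 genes were called (4.52%), 252 higher (1.79%) and 385 lower (2.73%), and the median difference of all genes was -0.05 in place of 0.13. Of the 447 genes 295 were called with the same sign in both fits, 193 higher and 102 lower. The rest of each count was called in 1 of the fits only. The share of genes called was 1.74% without positive sample lqz330, 5.72% without negative sample lqz298 and 7.23% without negative sample lqz331. Values of the groups did not overlap for 736 genes that were higher (5.23%) and 247 that were lower (1.75%) in positive cells. Both a call and such a gap were found for 278 higher (1.97%) and 67 lower genes (0.476%), from which the largest rises and falls below were taken. The scatter of the stomach differences with and without sample lqz239 shows these groups of genes.

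**Figure D1:**
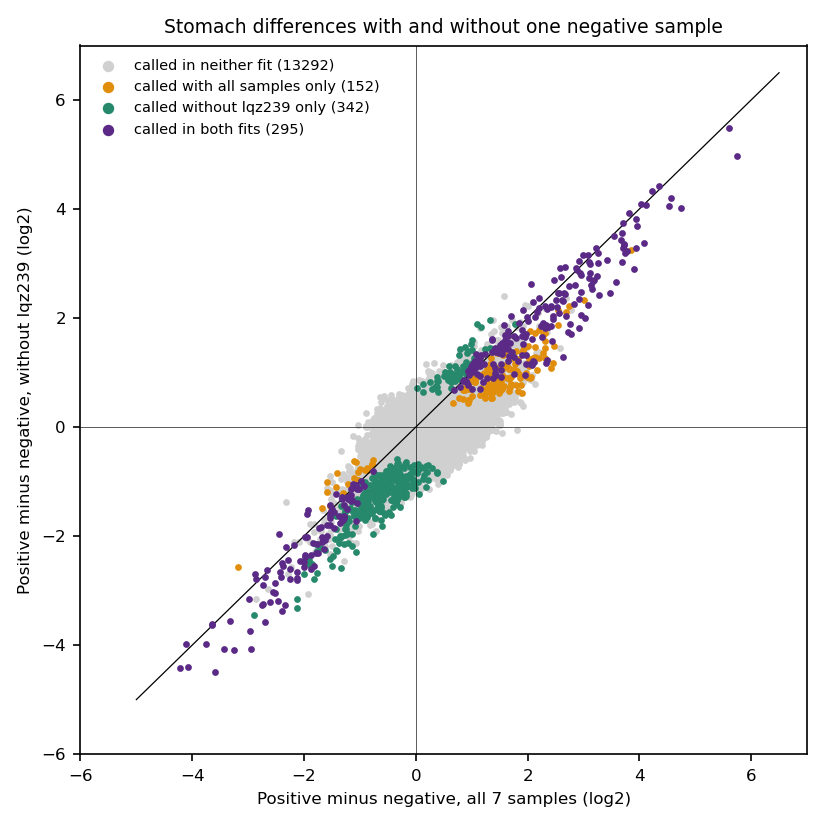
Difference between Prom1-positive and Prom1-negative stomach cells (log2) for 14081 genes, with all 7 samples on the horizontal axis and without negative sample lqz239 on the vertical axis; the line marks equal values. The 295 genes called in both fits (purple) lie towards both ends, those called only with sample lqz239 (orange) are mostly higher, and those called only without it (green) are mostly lower in positive cells.

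The largest rises included genes of secreted proteins, ion and water channels and a tight junction protein. Wfdc18, a small secreted protein of the whey acidic protein family, had log2 signals of 10.18, 10.76 and 10.71 in the positive samples, against 4.21, 2.44, 4.85 and 7.68 in the negative samples. The positive samples lay close together, while the negative ones were spread widely, with sample lqz331 nearest to the positive cells. Wfdc18 rose by 5.75 (SE 0.83, adjusted p = 6.34e-06; 4.97 without sample lqz239, adjusted p = 9.73e-05), the largest rise among the genes named. Its promoter, from 250 bases before to 50 after the start site, is shown because the gene led the rises. The sequence is from RefSeq on GRCm38.p6 (chr11:83708754-83709053, plus strand), and capitals mark a TATAAA at position -31 from the start site.
Wfdc18: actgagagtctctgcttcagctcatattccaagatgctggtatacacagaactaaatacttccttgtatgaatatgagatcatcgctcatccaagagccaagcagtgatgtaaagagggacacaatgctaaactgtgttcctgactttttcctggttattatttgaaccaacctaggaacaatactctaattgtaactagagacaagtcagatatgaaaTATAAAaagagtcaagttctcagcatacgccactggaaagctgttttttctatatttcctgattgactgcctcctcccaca
On either strand, TATAAA occurred in 13.6% of 32851 mouse promoters of this length. Of the 12 genes with the largest rises, 11 had at least 1 promoter in RefSeq, and TATAAA occurred in any promoter of 3 genes. A gene can have several promoters, so this count cannot be set against the share of single promoters. Such a match describes the letters alone.

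Cldn2, a claudin that forms pores for cations and water in tight junctions, had log2 signals of 11.21, 11.30 and 11.38 in the positive samples, against 6.94, 4.39, 6.16 and 8.75 in the negative samples. The positive values lay close together and above every negative value. It rose by 4.74 (SE 0.63, adjusted p = 1.60e-06; 4.02 without sample lqz239, adjusted p = 2.0e-05). Aqp5, a water channel of glandular cells, had 11.59, 11.73 and 11.25 in the positive samples, against 8.11, 7.32, 6.21 and 8.01 in the negative samples. Its groups were far apart as well, and it rose by 4.11 (SE 0.64, adjusted p = 3.32e-05; 4.08 without sample lqz239, adjusted p = 0.000137). Cftr, the chloride channel altered in cystic fibrosis, had 9.22, 8.57 and 7.82 in the positive samples, against 3.79, 2.59, 3.76 and 5.90 in the negative samples. Negative sample lqz331 was again the closest to the positive cells, and Cftr rose by 4.53 (SE 0.48, adjusted p = 2.91e-08; 4.05 without sample lqz239, adjusted p = 1.47e-07).

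Rgs5, a regulator of G protein signalling found in pericytes of many organs, had 10.16, 10.54 and 5.56 in the positive samples, against 2.79, 2.83, 3.45 and 3.56 in the negative samples. Positive sample lqz332 was much lower than samples lqz326 and lqz330, and still above all 4 negative samples, which lay near or under the array median. The rise was 5.60 (SE 0.95, adjusted p = 0.000121; 5.49 without sample lqz239, adjusted p = 0.000538). Slc9a3, a sodium and proton exchanger of apical membranes, had 10.76, 11.10 and 11.29 in the positive samples, against 9.04, 6.74, 4.53 and 8.12 in the negative samples, and rose by 3.94 (SE 0.46, adjusted p = 1.59e-07; 3.82 without sample lqz239, adjusted p = 8.21e-07). The positive samples were alike, and the negative ones were widely spread. Aqp1, a water channel, rose by 3.96 (SE 0.68, adjusted p = 0.000124; 3.68 without sample lqz239, adjusted p = 0.000996), and the membrane protein Tmem45a rose by 4.08 (SE 0.67, adjusted p = 6.58e-05; 3.37 without sample lqz239, adjusted p = 0.000812).

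A further 4 of the 12 largest rises were genes best known as products of the liver. C4b, a complement component with the near-identical copy C4a, had 8.61, 9.02 and 9.24 in the positive samples, against 4.28, 4.86, 4.07 and 5.25 in the negative samples, and rose by 4.35 (SE 0.61, adjusted p = 4.28e-06; 4.43 without sample lqz239, adjusted p = 1.52e-05). Mup3, a major urinary protein, rose by 4.57 (SE 0.63, adjusted p = 3.13e-06; 4.21 without sample lqz239, adjusted p = 3.93e-05); this family has near-identical members, so the probe set may read others. Mug1, a protease inhibitor of mouse plasma with the close relative Mug2, rose by 4.23 (SE 0.83, adjusted p = 0.00103; 4.33 without sample lqz239, adjusted p = 0.00199), and the plasma glycoprotein Lrg1 rose by 4.02 (SE 0.83, adjusted p = 0.00195; 4.10 without sample lqz239, adjusted p = 0.00347). None of the 4 overlapped between the groups, which the choice of the largest rises required. Other liver products were looked at after these values had been seen. Alb, serum albumin, had 8.40, 7.84 and 7.66 in the positive samples, against 5.12, 4.67, 4.09 and 5.60 in the negative samples, and rose by 3.09 (SE 0.52, adjusted p = 9.06e-05; 3.03 without sample lqz239, adjusted p = 0.000384). Ambp rose by 2.55 (SE 0.67, adjusted p = 0.0218), a call lost without sample lqz239 (adjusted p = 0.0948) and without negative sample lqz231 or positive sample lqz326 (adjusted p = 0.0658 and 0.209). Ttr was bright in both groups and differed by 0.76 (SE 0.53, adjusted p = 0.509). Apoa2, Fgb, Fga, Serpina1a, Apoc3, Apoh and Cyp3a11 were not called, with means of 2.57 to 4.33 in positive cells and 2.74 to 4.24 in negative cells. Most of their levels in positive cells were near or under the array median, and Apoa2 was above it in sample lqz326 (5.64).

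**Figure D2:**
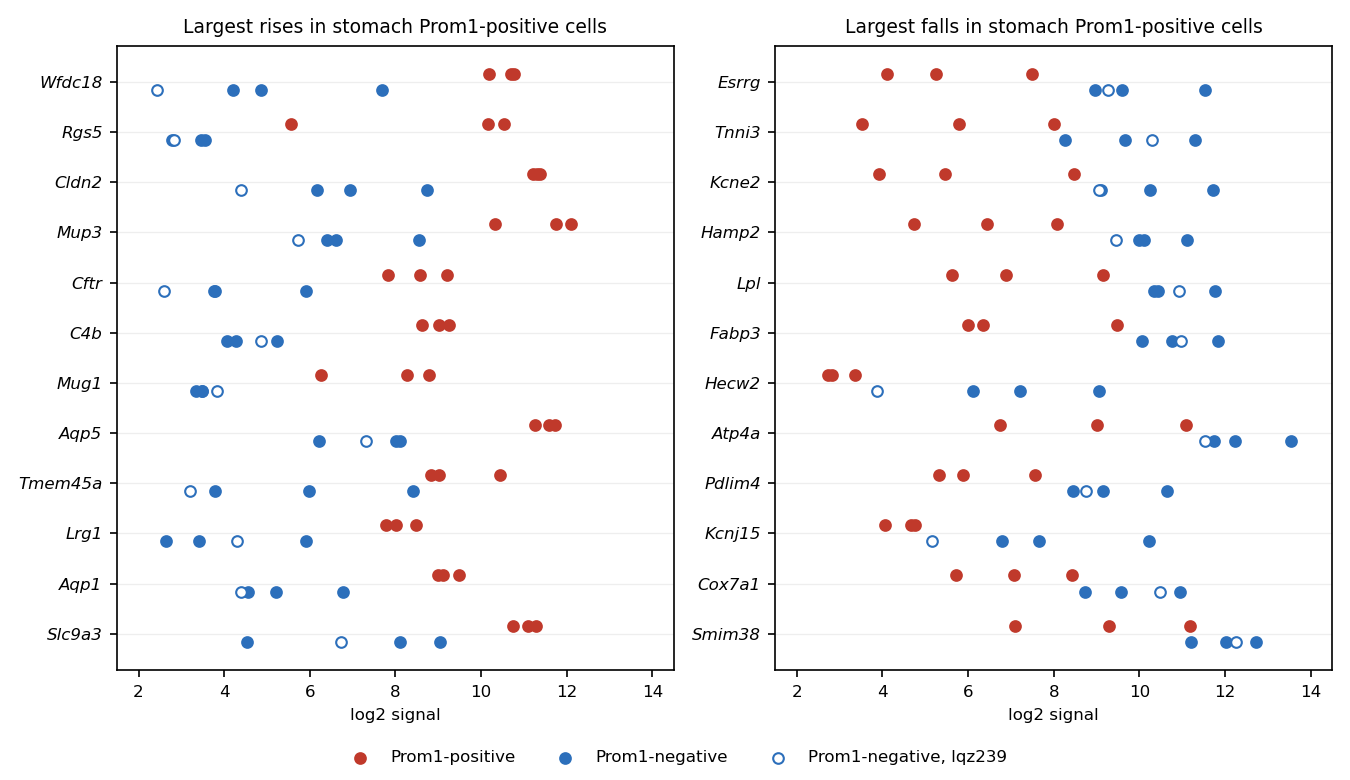
Log2 signal (horizontal axes) of the 12 genes with the largest rises, left, and the 12 with the largest falls, right, among called genes whose values do not overlap between the groups; each point is 1 sample, with Prom1-positive cells in red and Prom1-negative cells in blue (sample lqz239 open). Among the falls, the 3 positive samples are spread out, for example from 4.10 to 7.49 for Esrrg.

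Among the 12 largest falls, 4 were in genes of a parietal cell list, namely Esrrg, Kcne2, Atp4a and Kcnj15. Parietal cells secrete gastric acid. Of 20 tested members of the parietal cell list, 11 fell and none rose, where 0.888% of all genes fell. The median difference of the list was -1.62, against 0.13 over all genes. Without sample lqz239, 14 fell and none rose, with a median of -1.87. Falls were then also more common over all genes, at 2.73%, with a median of -0.05. The list averaged 6.0, 6.42 and 7.25 in the positive samples, against 9.49, 7.17, 7.57 and 8.23 in the negative samples. Positive sample lqz332 thus lay just above negative sample lqz239, and negative sample lqz231 was the highest. Without positive sample lqz326 the count of falls was 6, without lqz330 it was 7, and without other single samples 8 to 14. With only negative samples lqz298 and lqz331 it was 7, where 256 of 14081 genes fell. The list was described with its earlier results known, and its count is no independent support for the direction.

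The proton pump that acidifies the stomach consists of a catalytic alpha subunit, Atp4a, and a beta subunit, Atp4b. Atp4a had log2 signals of 6.75, 9.0 and 11.09 in the positive samples, against 13.53, 11.54, 11.75 and 12.23 in the negative samples. Positive sample lqz326 was the lowest and sample lqz332 lay just under the negative samples, so the groups were separated by a small gap. Atp4a fell by 3.32 (SE 0.75, adjusted p = 0.00565; -3.56 without sample lqz239). Atp4b had 8.20, 10.62 and 12.75 in the positive samples, against 13.94, 13.08, 12.89 and 12.98 in the negative samples. The positive samples stood in the same order and the gap was small, and Atp4b fell by 2.70 (SE 0.67, adjusted p = 0.014). Both subunits stayed far above the array median in every positive sample. Atp4a was not called without positive sample lqz326 (adjusted p = 0.138), and Atp4b was not called without positive sample lqz326 or positive sample lqz330 (adjusted p = 0.272 and 0.052). With array weights limma called neither subunit (adjusted p = 0.255 and 0.395). With only negative samples lqz298 and lqz331 neither was called (adjusted p = 0.0507 and 0.0986), nor was Atp4b with the title number as a block (adjusted p = 0.0984).

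Potassium must return to the gland lumen for the pump to work, and channel genes for this step fell too. Kcne2, an accessory subunit of the potassium channel at the apical membrane, had 3.91, 5.45 and 8.47 in the positive samples, against 11.71, 9.06, 9.10 and 10.24 in the negative samples. The positive samples ran from near background in lqz326 to close to the negative samples in lqz332. Kcne2 fell by 4.08 (SE 0.89, adjusted p = 0.00352), a call lost without positive sample lqz326 (adjusted p = 0.0766) and with array weights (adjusted p = 0.189). Kcnj15, an inward rectifier channel, had 4.05, 4.77 and 4.66 in the positive samples, against 10.23, 5.15, 7.67 and 6.80 in the negative samples, and fell by 2.97 (SE 0.53, adjusted p = 0.000255; -3.74 without sample lqz239). Kcnj16, another inward rectifier, had 3.88, 3.63 and 6.52 in the positive samples, against 9.65, 6.20, 8.26 and 8.35 in the negative samples. Positive sample lqz332 exceeded negative sample lqz239, so these groups overlapped, and Kcnj16 fell by 3.44 (SE 0.45, adjusted p = 1.57e-06). Kcnq1, the pore-forming partner of Kcne2, had 8.86, 8.87 and 9.11 in the positive samples, against 10.48, 6.83, 6.78 and 8.60 in the negative samples, and was not called (difference 0.77, SE 0.63, adjusted p = 0.59).

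Esrrg, a nuclear receptor that in mice is needed for parietal cell genes, had 4.10, 5.25 and 7.49 in the positive samples, against 11.52, 9.27, 8.97 and 9.59 in the negative samples. All 3 positive samples lay under all 4 negative ones, which the choice of the largest falls required, and lqz332 was the highest positive sample. Esrrg fell by 4.23 (SE 0.51, adjusted p = 2.84e-07; -4.42 without sample lqz239), or 18.7-fold, the largest fall among the genes named. The other 5 members that fell lie outside the naming rule: Hrh2, the histamine receptor that triggers acid release (-2.38), the anion exchangers Slc4a2 (-2.31) and Slc26a7 (-1.28), the chloride channel family member Clic6 (-1.95) and the sodium and proton exchanger Slc9a4 (-1.07). Among the 9 members that were not called, Aqp4 differed by -2.90 (SE 0.92, adjusted p = 0.0745) and Car2, a carbonic anhydrase, by -0.31 (SE 0.54, adjusted p = 0.846). Cblif, the intrinsic factor that in mice comes mainly from chief cells, had 13.18, 13.17 and 12.83 in the positive samples, against 12.12, 10.38, 9.37 and 11.16 in the negative samples, with a difference of 2.30 (SE 0.75, adjusted p = 0.0858).

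To show the sequence around the start of genes that fell, promoters of Atp4a and Kcnj16 from RefSeq (GRCm38.p6) follow. In Atp4a (chr7:30711959-30712258, plus strand) capitals mark CTTTGAA, a form of the TCF motif, at position -146. In Kcnj16 (chr11:110967783-110968082, plus strand, 1 of 4 start sites in the table) capitals mark TGACCTT at position -190, which is AAGGTCA, the core motif bound by receptors such as Esrrg, read on the minus strand.
Atp4a: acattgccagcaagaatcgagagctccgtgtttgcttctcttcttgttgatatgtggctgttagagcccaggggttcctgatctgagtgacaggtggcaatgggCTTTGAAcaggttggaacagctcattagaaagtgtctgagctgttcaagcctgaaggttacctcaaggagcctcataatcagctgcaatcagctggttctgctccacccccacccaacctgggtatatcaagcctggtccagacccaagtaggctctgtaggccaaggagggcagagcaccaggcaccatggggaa
Kcnj16: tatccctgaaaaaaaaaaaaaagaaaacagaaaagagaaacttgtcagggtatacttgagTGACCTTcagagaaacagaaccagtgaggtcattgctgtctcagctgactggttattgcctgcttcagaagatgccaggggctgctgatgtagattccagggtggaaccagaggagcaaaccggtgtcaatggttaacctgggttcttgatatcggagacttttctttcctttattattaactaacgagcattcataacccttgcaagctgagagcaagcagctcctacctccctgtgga
On either strand, CTTTGAA occurred in 5.14% and AAGGTCA in 4.72% of all 32851 promoters. Of the 6 parietal cell genes named, 5 had at least 1 promoter in the table. CTTTGAA occurred in any promoter of 2 of these genes and AAGGTCA in any of 1. Some of the genes have several promoters, so counts of genes cannot be set against the shares of single promoters. The motifs were picked with these genes in view, and a match is no evidence of a bound site.

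The other 8 of the 12 largest falls were in genes of varied roles. Tnni3, the inhibitory troponin of heart muscle, had 3.51, 5.78 and 8.01 in the positive samples, against 11.31, 10.29, 8.27 and 9.67 in the negative samples, and fell by 4.12 (SE 0.83, adjusted p = 0.00145; -3.98 without sample lqz239). Lpl, lipoprotein lipase, had 5.62, 6.90 and 9.15 in the positive samples, against 11.76, 10.93, 10.34 and 10.43 in the negative samples, and fell by 3.65 (SE 0.59, adjusted p = 6.16e-05). The fatty acid binding protein Fabp3 fell by 3.64 and Cox7a1, a subunit of cytochrome oxidase, by 2.87 (adjusted p = 0.000124 and 5.81e-05). For all 4 genes positive sample lqz326 was the lowest and lqz332 the highest of the positive cells. No values overlapped, which the choice of the largest falls required. Hamp2, a hepcidin with the near-identical relative Hamp, had 4.73, 6.45 and 8.07 in the positive samples, against 11.12, 9.45, 9.99 and 10.10 in the negative samples, and fell by 3.75 (SE 0.58, adjusted p = 2.57e-05). Hecw2, a ubiquitin ligase, fell by 3.60 (SE 0.90, adjusted p = 0.0143; -4.49 without sample lqz239). Its signals in the positive samples, 2.73, 2.81 and 3.35, lay under the array median. Pdlim4, a protein of the actin cytoskeleton, fell by 2.99 and the small membrane protein Smim38 by 2.86 (adjusted p = 0.000337 and 0.00711). Tnni3 was not called without positive sample lqz326 (adjusted p = 0.0532), Smim38 without positive sample lqz326 (adjusted p = 0.177), nor Hecw2 without negative sample lqz231, positive sample lqz326 or positive sample lqz330 (adjusted p = 0.0764, 0.0565 and 0.0656). Tnni3 and Smim38 were also not called with array weights (adjusted p = 0.167 and 0.357) or with only negative samples lqz298 and lqz331 (adjusted p = 0.0622 and 0.093).

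Genes of gastric stem and progenitor cells were among the rises. Of 23 tested members of this list, 8 rose and none fell, where 2.29% of all genes rose. The median difference was 1.20, against 0.13 over all genes. Without sample lqz239, 7 rose, against 1.79% of all genes, with a median of 0.66 against -0.05. The list averaged 7.96, 7.83 and 8.01 in the positive samples, against 6.96, 5.13, 6.53 and 7.19 in the negative samples. The list's levels did not overlap between the groups, and sample lqz239 was the lowest. Leaving out single samples gave 6 to 10 rises.

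Lgr5, a receptor for R-spondins that marks stem cells at the gland base, had 9.02, 9.14 and 9.28 in the positive samples, against 6.90, 3.76, 4.46 and 6.51 in the negative samples. The positive samples were nearly equal, while the negative ones ran from the array median in lqz239 to an intermediate level in lqz231 and lqz331. Lgr5 rose by 3.74 (SE 0.50, adjusted p = 1.59e-06; 3.19 without sample lqz239, adjusted p = 1.79e-05). Ascl2, a transcription factor of Lgr5-positive cells, had 6.70, 7.03 and 6.59 in the positive samples, against 3.24, 2.73, 3.72 and 4.89 in the negative samples. It rose by 3.13 (SE 0.38, adjusted p = 2.84e-07; 2.82 without sample lqz239, adjusted p = 1.94e-06). Most negative samples lay under or near the array median, and sample lqz331 was above it. Smoc2, a secreted matrix protein that also marks stem cells of the intestine, had 8.03, 7.85 and 6.85 in the positive samples, against 5.31, 5.48, 3.78 and 5.36 in the negative samples, and rose by 2.59 (SE 0.50, adjusted p = 0.000777; 2.76 without sample lqz239, adjusted p = 0.000776).

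Cd44, a hyaluronan receptor and Wnt target, had 11.46, 11.11 and 11.03 in the positive samples, against 7.84, 4.85, 8.16 and 9.60 in the negative samples. Sample lqz239 was by far the lowest, and Cd44 rose by 3.59 (SE 0.59, adjusted p = 7.38e-05; 2.67 without sample lqz239, adjusted p = 0.00046). Hopx, a homeodomain protein used as a marker of slowly dividing cells, had 8.82, 9.29 and 9.31 in the positive samples, against 5.81, 4.78, 6.49 and 7.66 in the negative samples, and rose by 2.95 (SE 0.53, adjusted p = 0.00029; 2.48 without sample lqz239, adjusted p = 0.00285). Negative sample lqz331 was the nearest to the positive cells for both genes. Vil1, the actin bundler villin, rose by 1.53 (SE 0.38, adjusted p = 0.0132), a call lost without sample lqz239 (adjusted p = 0.0691). Among the 15 members not called, Sox9 differed by 1.30 (SE 0.41, adjusted p = 0.0748), Lrig1 by 1.77 (SE 0.63, adjusted p = 0.123) and Sox2 by 1.83 (SE 0.65, adjusted p = 0.123). Sox2 had 8.66, 8.10 and 8.15 in the positive samples, against 6.54, 2.94, 7.89 and 8.52 in the negative samples, so that lqz239 alone lay far below the positive samples. Stmn1, reported in dividing isthmus cells, differed by 0.05 (SE 0.51, adjusted p = 0.984).

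Wnt target and feedback genes shared 4 of their 6 rises, Lgr5, Ascl2, Cd44 and Axin2, with the stem and progenitor list. Of 24 tested members, 6 rose and none fell (median 1.08), where 2.29% of all genes rose (median 0.13). Without sample lqz239, 7 rose (median 0.78), against 1.79% of all genes (median -0.05). Leaving out positive sample lqz332 gave 4 rises, and leaving out other single samples 5 to 9. The list averaged 6.68, 6.49 and 6.77 in the positive samples, against 5.66, 4.73, 5.25 and 5.83 in the negative samples, with no overlap. Axin2, a scaffold that damps the pathway and is a general readout of it, had 6.18, 5.83 and 6.62 in the positive samples, against 4.67, 4.71, 4.79 and 4.52 in the negative samples. Its negative samples were unusually alike, and Axin2 rose by 1.54 (SE 0.36, adjusted p = 0.00711; 1.55 without sample lqz239, adjusted p = 0.0104), a call lost without positive sample lqz332 (adjusted p = 0.069). With the mean of its probe sets in place of the brightest, Axin2 differed by 0.74 and was not called by limma (adjusted p = 0.0714). With all 117 samples in the fit it was not called either (adjusted p = 0.155). Sp5, a transcription factor induced by Wnt, had 6.52, 5.90 and 6.39 in the positive samples, against 3.58, 4.48, 3.48 and 3.65 in the negative samples. Sample lqz239 was the highest negative sample here, and Sp5 rose by 2.48 (SE 0.32, adjusted p = 1.02e-06; 2.70 without sample lqz239, adjusted p = 1.88e-07). Bambi, a decoy receptor for TGF-beta family ligands, rose by 2.09 (SE 0.53, adjusted p = 0.016; 2.30 without sample lqz239, adjusted p = 0.0104), a call lost without negative sample lqz231, positive sample lqz326 or positive sample lqz332 (adjusted p = 0.052, 0.0897 and 0.0774). The feedback ligases Znrf3 and Rnf43 were not called, and differed by 1.77 (SE 0.64, adjusted p = 0.134) and 0.83 (SE 0.41, adjusted p = 0.304), and Nkd1 differed by 1.65 (SE 0.68, adjusted p = 0.202).

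Of the 6 Wnt targets that rose, 4 had a promoter in the RefSeq table, and CTTTGAT, the core of the TCF motif, occurred in that of Sp5 alone. It is shown for that reason (chr2:70474673-70474972, plus strand, GRCm38.p6), with the motif in capitals at position -104.
Sp5: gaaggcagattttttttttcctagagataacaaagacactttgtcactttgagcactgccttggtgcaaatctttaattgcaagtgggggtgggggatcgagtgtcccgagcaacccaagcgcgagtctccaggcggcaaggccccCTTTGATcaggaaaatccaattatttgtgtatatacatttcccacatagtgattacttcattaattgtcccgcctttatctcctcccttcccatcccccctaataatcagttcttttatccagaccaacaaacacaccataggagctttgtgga
On either strand, CTTTGAT occurred in 3.73% of all 32851 promoters, and its absence from the windows of the other 3 genes says nothing about TCF factors.

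Genes that act upstream of these targets did not pass the test. By limma none of 29 tested Wnt ligands, receptors and agonists rose or fell (median 0.22), with 1 at an unadjusted p under 0.05. In the same fit 16.4% of all genes had an unadjusted p under 0.05. Ctnnb1, beta-catenin, had 11.82, 11.81 and 11.76 in the positive samples, against 11.58, 11.12, 11.85 and 11.91 in the negative samples, with a difference of 0.18 (SE 0.19, adjusted p = 0.704) and a 95% interval of -0.21 to 0.58. Fzd5, a Wnt receptor, differed by 0.14 (SE 0.59, adjusted p = 0.953) and Wls, which carries Wnt proteins to the surface, by 0.30 (SE 0.51, adjusted p = 0.845). No member of 16 Notch pathway genes passed (median 0.17), with 3 at an unadjusted p under 0.05, against that share of 16.4% over all genes. Hes6, a modulator of Notch targets, differed by 1.41 (SE 0.45, adjusted p = 0.0738). Among 17 Hedgehog and BMP genes, the ligand Bmp7 rose by 1.53 (SE 0.35, adjusted p = 0.00641; 1.16 without sample lqz239, adjusted p = 0.0374), although negative sample lqz231 lay within the range of the positive cells. The BMP targets Id1, Id2 and Id3 differed by 0.69, 0.74 and 0.53 and were not called.

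Neck mucous cells secrete class III mucins from the middle of the gland, and 3 of 8 tested genes of these cells rose, with none falling (median 0.83), where 2.29% of all genes rose. Without sample lqz239, 3 rose as well (median 0.45), against 1.79% of all genes. They included Aqp5, given above. A4gnt, the glycosyltransferase that builds the sugar typical of gland mucin, had 11.08, 11.34 and 11.40 in the positive samples, against 9.58, 6.27, 7.86 and 8.76 in the negative samples. The positive samples were alike and clear of the negative ones, and A4gnt rose by 3.15 (SE 0.47, adjusted p = 1.37e-05; 2.54 without sample lqz239, adjusted p = 0.00013). Spdef, a transcription factor of mucus-secreting cells, had 9.44, 9.78 and 9.63 in the positive samples, against 7.77, 6.0, 6.59 and 7.57 in the negative samples, and rose by 2.64 (SE 0.35, adjusted p = 1.59e-06; 2.31 without sample lqz239, adjusted p = 1.78e-05). Tff2, the trefoil peptide of neck cells, was near the top of the scale in all samples and was not called (difference 0.50, SE 0.76, adjusted p = 0.817).

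Among 13 tested chief cell genes none rose or fell by limma (median 0.35), with 4 at an unadjusted p under 0.05, where 16.4% of all genes were. Pgc, the zymogen of gastricsin, had 12.61, 12.37 and 12.69 in the positive samples, against 11.85, 11.41, 10.61 and 11.13 in the negative samples. The groups did not overlap, yet the difference of 1.31 (SE 0.56, adjusted p = 0.229) was not called. Gkn3, a gastrokine, averaged 13.99 ± 0.06 in positive cells (SD, n = 3) and 12.22 ± 0.80 in negative cells (SD, n = 4), near the top of the array's scale. Its groups did not overlap, and the difference of 1.77 (SE 0.56, adjusted p = 0.0723) was not called. Chia1, an acid chitinase of mouse chief cells, was lower by 1.89 and not called (adjusted p = 0.3). Of 16 surface mucous cell genes none rose or fell either (median 0.20, and -0.09 without sample lqz239), with 0 at an unadjusted p under 0.05. Muc5ac, the mucin of surface cells, had 10.68, 12.59 and 12.54 in the positive samples, against 11.03, 10.50, 13.14 and 12.42 in the negative samples, with a difference of 0.16 (SE 0.86, adjusted p = 0.963). Its values in the groups were mingled. Gkn1, Gkn2 and Tff1, major products of the surface epithelium, differed by 0.22, 0.50 and 0.16.

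Of 17 tested endocrine cell genes 14 were not called, 1 rose and 2 fell (median -0.31), where 2.29% of all genes rose and 0.888% fell. Without negative sample lqz331, 3 rose and 3 fell, and without positive sample lqz330, 1 rose and 1 fell. Chga, a granule protein of many endocrine cells, had 7.09, 6.40 and 7.27 in the positive samples, against 11.17, 10.88, 6.78 and 8.66 in the negative samples. Negative samples lqz231 and lqz239 were high, while lqz298 lay among the positive samples, and Chga fell by 2.46 (SE 0.53, adjusted p = 0.0035; -1.95 without sample lqz239). With only negative samples lqz298 and lqz331 the call was lost. Ghrl, the precursor of ghrelin, had 10.47, 8.34 and 9.30 in the positive samples, against 11.46, 11.22, 10.33 and 12.37 in the negative samples, and fell by 1.98 (SE 0.41, adjusted p = 0.00188; -2.02 without sample lqz239), a call lost without positive sample lqz330 (adjusted p = 0.0748). Hdc, which makes the histamine of enterochromaffin-like cells and mast cells, differed by -1.64 (SE 0.79, adjusted p = 0.289), and Sst, somatostatin, by -0.91 (SE 0.50, adjusted p = 0.365). Gast, the gastrin of antral G cells, had 13.42, 12.64 and 12.39 in the positive samples, against 11.37, 8.29, 10.31 and 13.08 in the negative samples, with a difference of 2.05 (SE 0.78, adjusted p = 0.16). Its negative samples ran from 8.29 in lqz239 up to 13.08 in lqz331, which overlapped the positive cells. Nkx6-3, a transcription factor of the antrum needed for G cells in mice, rose by 2.35 (SE 0.53, adjusted p = 0.00483; 1.23 without sample lqz239, adjusted p = 0.00731). It was not called with only negative samples lqz298 and lqz331 (0.67, adjusted p = 0.175), with array weights (1.04, adjusted p = 0.0782), with the title number as a block (2.14, adjusted p = 0.227) or without arrays of an upper quartile under 6 (1.33, adjusted p = 0.0872). Among 7 tuft cell genes the taste channel Trpm5 fell by 1.60 (SE 0.43, adjusted p = 0.0258), and none rose. Trpm5 was not called without sample lqz239 (adjusted p = 0.126) or without positive sample lqz326 or positive sample lqz332 (adjusted p = 0.107 and 0.156).

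Of 16 stomach and endoderm transcription factors, 3 rose and none fell (median 0.36), where 2.29% of all genes rose. Without sample lqz239, 2 rose (median 0.06), and with only negative samples lqz298 and lqz331, 1 rose and 1 fell (median -0.10). Leaving out other single samples gave 2 to 4 rises. Apart from Nkx6-3 these were Nkx6-2 (difference 1.58, SE 0.25, adjusted p = 3.43e-05; 1.47 without sample lqz239, adjusted p = 0.000174) and Pdx1, a factor of pancreas, duodenum and antrum, which had 7.59, 6.91 and 7.20 in the positive samples, against 4.57, 3.76, 6.68 and 7.23 in the negative samples. Pdx1 rose by 1.67 (SE 0.41, adjusted p = 0.0105), but negative samples lqz298 and lqz331 lay among or near the positive cells, and the call was lost without sample lqz239 (adjusted p = 0.0634) and without negative sample lqz231 or positive sample lqz326 (adjusted p = 0.0555 and 0.0701). Of 24 epithelial adhesion and keratin genes, 3 rose and none fell (median 0.59), where 2.29% of all genes rose. Without sample lqz239, 2 of them rose (median 0.12), against 1.79% of all genes. The 3 were Cldn2, Cldn7 (difference 2.42, SE 0.53, adjusted p = 0.00372; 2.22 without sample lqz239, adjusted p = 0.0132) and the transcription factor Ehf (difference 1.85, SE 0.52, adjusted p = 0.0338; 0.97 without sample lqz239, adjusted p = 0.175). Ehf was also not called without positive sample lqz326, positive sample lqz330 or positive sample lqz332 (adjusted p = 0.0884, 0.0764 and 0.13). With only negative samples lqz298 and lqz331 limma did not call Cldn7 (1.58, adjusted p = 0.149). Nor was Cldn7 called with all 117 samples (adjusted p = 0.148) or with the title number as a block (adjusted p = 0.0716). Krt19, Krt8, Krt18 and Cdh1, general markers of epithelium, differed by 0.17, -0.12, 0.04 and 0.19 and were not called. Their means were 11.1 to 12.5 in positive cells and 10.9 to 12.6 in negative cells, far above the array median in both.

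**Figure D3:**
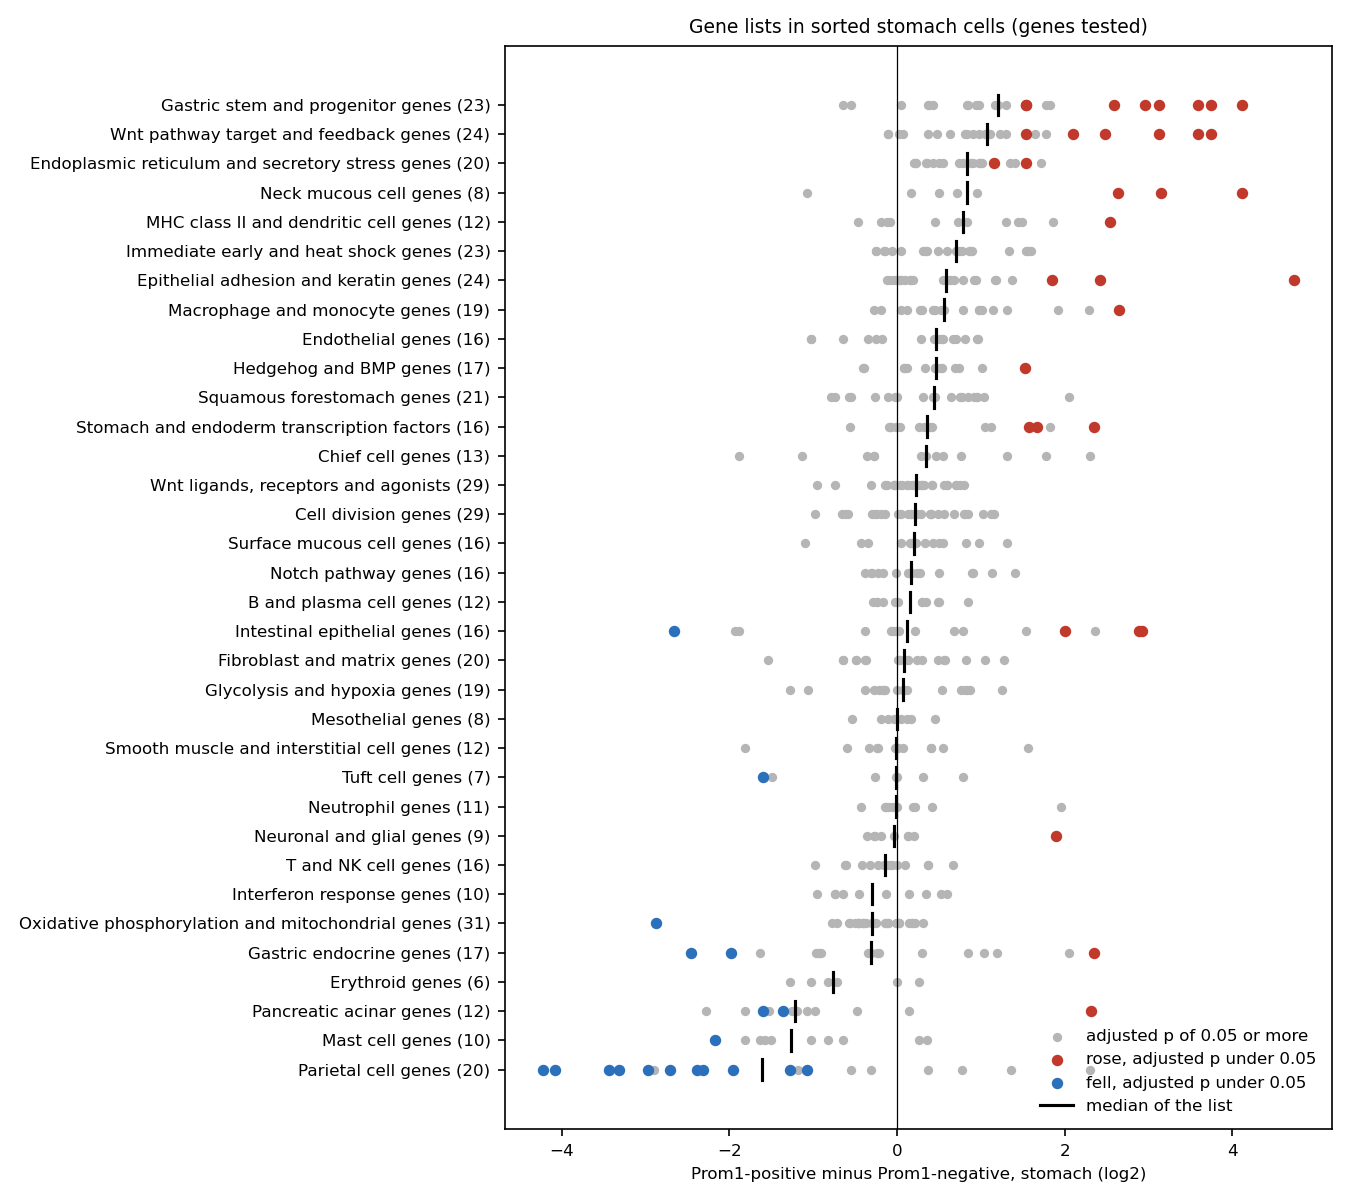
Difference between Prom1-positive and Prom1-negative stomach cells (log2, horizontal axis) for each tested gene of the lists, ordered by list median (black bars), with the number of genes tested in brackets; red and blue points rose or fell at an adjusted p under 0.05 by limma. The parietal cell list holds 11 of the blue points, and the stem and progenitor list 8 of the red ones; some genes stand on more than 1 list.

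Markers of tissues next to the stomach were examined as a check on what the samples held. Of 12 pancreatic acinar genes, 1 rose and 2 fell (median -1.22), where 2.29% of all genes rose and 0.888% fell. The level of the acinar list was 7.72, 4.90 and 4.99 in the positive samples, against 5.71, 5.29, 7.51 and 8.67 in the negative samples, so it varied within both groups. Cela1, an elastase also made outside the pancreas, rose by 2.32 (SE 0.64, adjusted p = 0.0314; 1.72 without sample lqz239, adjusted p = 0.119), and was also not called without positive sample lqz326, positive sample lqz330 or positive sample lqz332 (adjusted p = 0.109, 0.109 and 0.0632). The acinar transcription factor Ptf1a fell by 1.60 and the trypsinogen Prss1 by 1.36 (adjusted p = 0.00683 and 0.0293); trypsinogens have near-identical copies. Ptf1a was not called without negative sample lqz231 (adjusted p = 0.0505), nor Prss1 without negative sample lqz298, positive sample lqz326, positive sample lqz330, negative sample lqz331 or positive sample lqz332 (adjusted p = 0.132, 0.0807, 0.0884, 0.067 and 0.0908). Of 16 intestinal epithelial genes, 3 rose and 1 fell (median 0.12), against the same 2.29% and 0.888% of all genes. The antimicrobial lectins Reg3g and Reg3b, which are close relatives, rose by 2.92 (SE 0.53, adjusted p = 0.00029; 3.05 without sample lqz239, adjusted p = 0.000421) and by 2.88 (SE 0.38, adjusted p = 1.59e-06; 2.89 without sample lqz239, adjusted p = 5.53e-06). The peptidase Anpep rose by 2.0 (SE 0.51, adjusted p = 0.0176), a call lost without sample lqz239 (adjusted p = 0.0792) and without positive sample lqz332 (adjusted p = 0.0977). Apoa1, the main protein of high-density lipoprotein, had 7.48, 10.13 and 10.93 in the positive samples, against 12.97, 12.27, 11.76 and 11.68 in the negative samples, and fell by 2.66 (SE 0.45, adjusted p = 0.000109). Of 21 squamous genes, which mark the keratinised forestomach, none rose or fell by limma, with 2 at an unadjusted p under 0.05. Over all genes 16.4% were at such a p. Without positive sample lqz326, 4 rose, and without negative samples lqz331 or lqz298, 2 or 1 rose. In those fits 261, 851 and 619 of all 14081 genes rose. Without negative sample lqz231 or lqz239, 1 fell, where 111 and 385 of all genes did. The squamous genes had list levels of 4.20, 5.66 and 6.01 in the positive samples and 3.93, 3.91, 5.42 and 6.47 in the negative samples. The part of these tissues in the other differences was not tested.

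In 8 lists of connective tissue, vessel and blood cells no gene passed the test by limma. No member rose or fell among 20 fibroblast and matrix genes (median 0.08), 12 smooth muscle and interstitial cell genes (-0.01), 16 endothelial genes (0.47) or 8 mesothelial genes (0.0). The same held for 16 T and NK cell genes (-0.15), 12 B and plasma cell genes (0.15), 11 neutrophil genes (-0.01) and 6 erythroid genes (-0.77). At an unadjusted p under 0.05 were 1 fibroblast, 2 muscle or interstitial cell, 1 neutrophil and 1 erythroid gene, and 0 of the other lists. Over all genes the share was 16.4%. Dcn, the matrix proteoglycan decorin, had 3.92, 6.77 and 6.30 in the positive samples, against 4.13, 9.15, 8.12 and 7.42 in the negative samples, with a difference of -1.54 (SE 0.75, adjusted p = 0.3). Positive sample lqz326 and negative sample lqz231 were both low and sample lqz239 was the highest, so the level varied within each group. Hba-a1, a haemoglobin chain with a near-identical copy, had 8.36, 9.64 and 11.52 in the positive samples, against 8.70, 6.97, 13.22 and 13.31 in the negative samples, with samples lqz298 and lqz331 the highest, and a difference of -0.71 (SE 1.0, adjusted p = 0.796).

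Single members passed in 4 further lists of such cells, where 2.29% of all genes rose and 0.888% fell. Of 19 macrophage and monocyte genes, Lyz2, a lysozyme of macrophages and some epithelia, rose by 2.65 (SE 0.66, adjusted p = 0.0133; 2.45 without sample lqz239, adjusted p = 0.0349). It had 8.34, 8.81 and 8.34 in the positive samples, against 2.80, 5.24, 7.74 and 7.60 in the negative samples, with sample lqz231 under the array median, and was not called without negative sample lqz231 or positive sample lqz330 (adjusted p = 0.0921 and 0.0803). The list level was 4.88, 4.92 and 4.51 in the positive samples, against 3.19, 3.98, 4.60 and 4.10 in the negative samples, and Cd14 and C1qa differed by 2.29 (SE 0.75, adjusted p = 0.0858) and 1.91 (SE 0.89, adjusted p = 0.275). Of 12 MHC class II and dendritic cell genes, H2-DMb2, which helps to load peptides, rose by 2.55 (SE 0.60, adjusted p = 0.00741; 2.46 without sample lqz239, adjusted p = 0.0169), a call lost without positive sample lqz332 (adjusted p = 0.0678). With the mean of its probe sets H2-DMb2 differed by 1.39 and was not called by limma (adjusted p = 0.114). H2-Aa and Cd74 of the same pathway differed by 1.49 (SE 0.76, adjusted p = 0.315) and 1.45 (SE 0.63, adjusted p = 0.231). In the list of neuronal and glial genes the calcium-binding protein S100b rose by 1.90 (SE 0.23, adjusted p = 2.84e-07; 1.79 without sample lqz239, adjusted p = 1.24e-06). The glial factor Sox10 lay near the array median, with 3.88 ± 0.32 in positive cells (SD, n = 3) and 3.67 ± 0.59 in negative cells (SD, n = 4), and so did the receptor Ret. Of 10 mast cell genes 1 fell and none rose (median -1.27, and -1.50 without sample lqz239, when 2 fell), with 6 lower at an unadjusted p under 0.05. Over all genes 0.888% fell, or 2.73% without lqz239, and 16.4% had an unadjusted p under 0.05 in either direction. With only negative samples lqz298 and lqz331, 6 fell (median -1.77), where 256 of 14081 genes fell. Without sample lqz298 none of the list fell and 1 rose, where 186 and 619 of all genes did. The mucosal protease Mcpt1 fell by 2.17 (SE 0.60, adjusted p = 0.0318). Mcpt1 had 3.41, 5.19 and 2.63 in the positive samples, against 2.56, 5.92, 9.21 and 5.97 in the negative samples, and the call was lost without negative sample lqz298, positive sample lqz326 or positive sample lqz332 (adjusted p = 0.144, 0.121 and 0.236). The mast cell list level of 7.02 in sample lqz298 was the highest of the 7 samples.

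None of 29 tested genes of cell division rose or fell by limma, with 1 at an unadjusted p under 0.05, where 16.4% of all genes were. The median difference was 0.21, or -0.43 without sample lqz239. The list averaged 8.01, 6.83 and 6.89 in the positive samples, against 7.0, 5.21, 7.91 and 8.04 in the negative samples, so the values were mingled. Mki67, a protein of cycling cells, had 9.13, 8.76 and 8.69 in the positive samples, against 8.73, 8.41, 9.75 and 9.75 in the negative samples, with a difference of -0.30 (SE 0.56, adjusted p = 0.864). Among 31 oxidative phosphorylation and mitochondrial genes, Cox7a1 alone fell and none rose (median -0.30). Without sample lqz239, 4 fell: Cox7a1, Uqcrc2 (-0.91), Ndufs1 (-1.02) and Cs (-0.71). Over all genes the share that fell was 0.888%, and 2.73% without sample lqz239. The list level was 10.34, 10.22 and 10.42 in the positive samples, against 11.29, 10.13, 10.51 and 10.66 in the negative samples. Negative sample lqz231, which was highest for parietal cell genes, was highest here too. No member of 19 glycolysis and hypoxia genes (median 0.07), 10 interferon response genes (-0.29) or 23 immediate early and heat shock genes (0.70) rose or fell, with 3, 1 and 8 at an unadjusted p under 0.05. The share of all genes at such a p was 16.4%. Fos, an immediate early gene that dissociation of tissue can induce, averaged 11.96 ± 0.29 in positive cells (SD, n = 3) and 11.26 ± 0.27 in negative cells (SD, n = 4). Its difference of 0.70 (SE 0.35, adjusted p = 0.305) was not called, and all 8 immediate early and heat shock genes past the unadjusted p were higher in positive cells.

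The 20 genes of the endoplasmic reticulum and secretory stress list all had a difference above 0, and 2 of them rose (median 0.83), where 2.29% of all genes rose (median 0.13). At an unadjusted p under 0.05 by limma were 14, all higher, where 16.4% of all genes were in either direction. The list averaged 9.75, 9.49 and 9.61 in the positive samples, against 9.20, 7.45, 9.25 and 9.33 in the negative samples, with lqz239 far the lowest. Without sample lqz239, 1 rose (median 0.43), where 1.79% of all genes rose (median -0.05). None rose without positive sample lqz330 and 1 without lqz326 or lqz332, against 5 without negative sample lqz231 and 6 without lqz298 or lqz331. With the upper quartile as a covariate 7 members of the list rose, where 1124 of 14081 genes did. Sec61b, a subunit of the channel through which secreted proteins enter the reticulum, had 11.24, 11.30 and 10.85 in the positive samples, against 9.88, 8.61, 10.55 and 10.84 in the negative samples, and rose by 1.16 (SE 0.27, adjusted p = 0.00683; 0.70 without sample lqz239, adjusted p = 0.0304), a call lost without positive sample lqz330 (adjusted p = 0.0551). With only negative samples lqz298 and lqz331 limma did not call Sec61b (0.43, adjusted p = 0.28). Sec61b was not called either with array weights (0.50, adjusted p = 0.213) or with the title number as a block (1.10, adjusted p = 0.273). Dnajb9, a chaperone of the reticulum, had 9.43, 9.22 and 9.28 in the positive samples, against 8.57, 5.44, 8.34 and 8.77 in the negative samples. Sample lqz239 was far below the others, and the rise of 1.53 (SE 0.40, adjusted p = 0.0197) was lost without it (adjusted p = 0.0829) and without positive sample lqz326, positive sample lqz330 or positive sample lqz332 (adjusted p = 0.0727, 0.061 and 0.0578).

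Whether a difference was particular to the stomach was tested against the mean difference between positive and negative cells of prostate, lung, intestine, liver and uterus. By limma, 584 of 14081 genes (4.15%) differed, 446 with a stomach difference above that of the other tissues (3.17%) and the rest with one below it (0.98%). Without sample lqz239 the count was 640 (4.55%), 313 above and 327 below. The share was 2.63%, 2.22% and 2.67% without positive samples lqz326, lqz330 and lqz332, and 8.31% without negative sample lqz331. For Prom1 the stomach difference exceeded that of the other tissues by 0.85 (SE 0.46, adjusted p = 0.312), which was not called.

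Genes called in this test and in stomach itself made up 1.62% of all genes for rises and 0.611% for falls, and the 6 largest of each are named. Rgs5 differed by -2.89, -0.12, -0.02, -1.13 and 0.03 in prostate, lung, intestine, liver and uterus, and the stomach difference exceeded their mean by 6.42 (SE 1.03, adjusted p = 5.35e-05). Lox, which cross-links collagen, had 8.59, 9.11 and 8.06 in the positive samples, against 5.01, 3.63, 4.47 and 6.43 in the negative samples in stomach. Its stomach rise of 3.70 (SE 0.54, adjusted p = 9.48e-06; 3.28 without sample lqz239, adjusted p = 0.000132) exceeded the mean of the other tissues by 5.27 (SE 0.59, adjusted p = 9.43e-08), and in prostate its difference was -4.16 on the log2 scale. Scara3, a scavenger receptor relative, and Cacna2d1, a calcium channel subunit, rose by 3.43 and 3.67 in stomach and exceeded the other tissues by 4.85 (SE 0.56, adjusted p = 1.65e-07) and 4.84 (SE 0.68, adjusted p = 6.81e-06). For these 4 genes the mean difference of the other tissues was below 0. Aqp1 exceeded the other tissues by 4.90 (SE 0.73, adjusted p = 1.76e-05) and Wfdc18 by 5.03 (SE 0.90, adjusted p = 0.000275), though Wfdc18 differed by 2.56 in uterus as well. All 6 genes were far apart between the stomach groups, with no overlap, which for Rgs5, Aqp1 and Wfdc18 the choice of the largest rises required.

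Among falls, Esrrg differed from the other tissues by -4.68 (SE 0.56, adjusted p = 2.10e-07). Its mean was 5.61 ± 1.73 in positive cells (SD, n = 3) and 9.84 ± 1.15 in negative cells (SD, n = 4) of stomach, but at most 6.22 in the sorted groups of other tissues. Kcne2 (-4.38, SE 0.96, adjusted p = 0.00376) and Tnni3 (-4.09, SE 0.90, adjusted p = 0.00385) were also bright in stomach negative cells, at 10.03 and 9.88. Hamp2 (-3.99, SE 0.63, adjusted p = 4.33e-05), the glycosyltransferase B4galnt2 (-3.72, SE 0.60, adjusted p = 5.57e-05) and the secreted ribonuclease Rnase1 (-3.52, SE 0.76, adjusted p = 0.00323) followed. Rnase1 had 8.20, 4.20 and 5.92 in the positive samples, against 9.66, 8.38, 7.98 and 9.38 in the negative samples in stomach, where positive sample lqz326 lay within the range of the negative samples. Its stomach fall of 2.74 (SE 0.70, adjusted p = 0.0174; -2.90 without sample lqz239) was not called without negative sample lqz231, positive sample lqz330 or positive sample lqz332 (adjusted p = 0.0505, 0.283 and 0.0678). B4galnt2 fell by 3.25 (SE 0.55, adjusted p = 0.000124; -4.09 without sample lqz239), with sample lqz239 within the range of the positive cells. By list, 10 of 20 parietal cell genes lay below the other tissues and none above, where 0.98% of all genes lay below. A gene near background in both sorted groups of another tissue can hardly differ there. For such genes the test mostly repeats the stomach fall and cannot show that the fall is particular to stomach. Above the other tissues lay 9 of 23 stem and progenitor, 7 of 24 Wnt target and 3 of 8 neck mucous cell genes, with none below, where 3.17% of all genes lay above. Among T and NK cell genes 8 of 16 lay above the other tissues although none rose or fell in stomach. The same held for 5 of 20 fibroblast and matrix genes and 3 of 12 B and plasma cell genes. Also above, with none below, lay 3 of 16 stomach and endoderm transcription factors and 3 of 17 Hedgehog and BMP genes. A place above the other tissues was thus not limited to the stem, Wnt target and neck cell lists. The plot of stomach differences against those of other tissues shows the 66 called genes that were named, of which 59 passed; this test uses the same stomach samples as the calls.

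**Figure D4:**
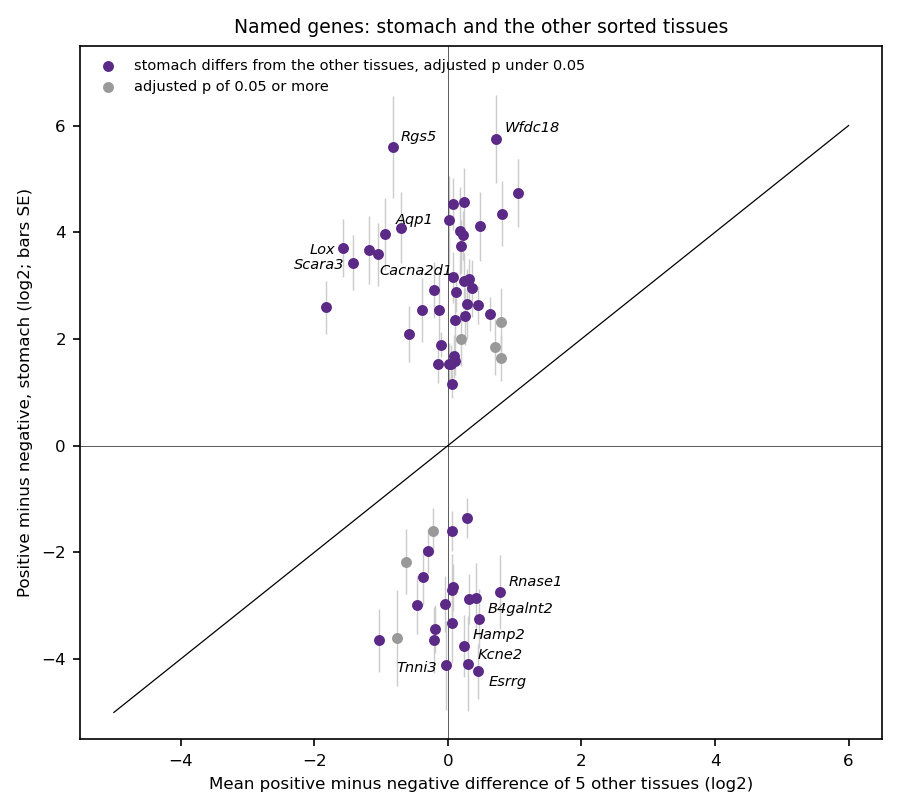
Difference between Prom1-positive and Prom1-negative cells (log2) in stomach, vertical axis with SE bars, against the mean difference of the 5 other tissues, horizontal axis, for 66 named genes called in stomach; the line marks equal values. The 59 purple points differ from the other tissues at an adjusted p under 0.05 by limma, and the genes of the text are labelled, for example Rgs5 at 5.60 and Esrrg at -4.23 in stomach.

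Levels in all 12 sorted groups placed the stomach genes. Cldn2 averaged 11.30 ± 0.09 in stomach positive cells (SD, n = 3) and 6.56 ± 1.81 in stomach negative cells (SD, n = 4), and 9.66 ± 0.39 in intestine positive and 9.28 ± 0.52 in intestine negative cells (SD, n = 3 and 5). Its next highest pair of levels was thus in a tissue where the sorted groups were alike. Lgr5 averaged 9.15 ± 0.13 in stomach positive cells (SD, n = 3) and 5.41 ± 1.54 in stomach negative cells (SD, n = 4), and the next highest group, intestine positive cells, had 6.59 ± 1.10 (SD, n = 3). The interval of 1 SD of stomach positive cells was clear of both other groups, whose intervals overlapped each other. Atp4a averaged 8.95 ± 2.17 in positive cells (SD, n = 3) and 12.26 ± 0.90 in negative cells (SD, n = 4) of stomach, and at most 4.25 elsewhere, in intestine negative cells. Prom1 itself was highest in stomach positive cells, followed by uterus positive cells (11.37 ± 0.48, SD, n = 4), and the intervals of 1 SD of these neighbours overlapped.

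**Figure D5:**
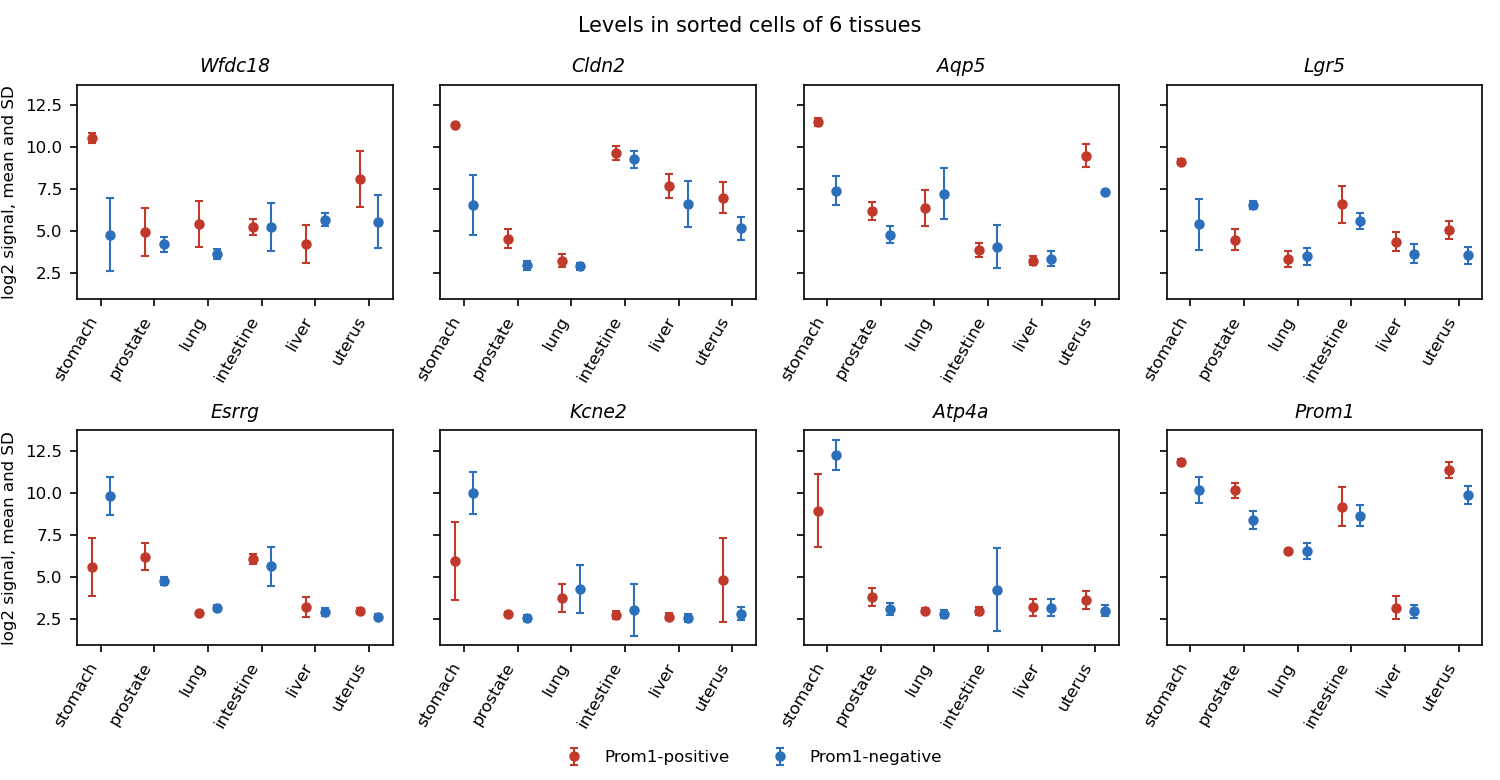
Mean log2 signal with SD (vertical axes) of 8 genes in Prom1-positive (red) and Prom1-negative (blue) cells of 6 tissues, with 3 to 7 samples in each group. Lgr5 and Wfdc18 are highest in stomach positive cells, at 9.15 and 10.55, and Esrrg, Kcne2 and Atp4a in stomach negative cells, at 9.84, 10.03 and 12.26.

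The sign of the called genes was compared with that in each other tissue. Of the 322 genes that rose in stomach, 62.1% had a difference above 0 in prostate, 59.6% in lung, 52.8% in intestine, 42.9% in liver and 60.6% in uterus. Over all genes those shares were 59%, 48.6%, 50.5%, 40.6% and 52.7%. Of the 125 genes that fell, 60%, 53.6%, 37.6%, 52.8% and 48.8% had a difference above 0 in the same tissues. In intestine and uterus the share was below that of all genes, and in prostate, lung and liver it was above. These shares are descriptions, and no test was run on them.

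The series also holds 11 gastric adenocarcinomas, frozen as whole tissue without sorting, whose levels can only be set beside those of sorted cells. In these tumours Atp4a ranged from 2.81 to 3.98 and Esrrg from 2.51 to 2.86, near or under the array median. Lgr5 ranged from 3.54 to 6.37, with a median of 4.60, below all 3 positive stomach samples. Cldn2 ranged from 7.43 to 11.43 with a median of 10.62, and Cd44 from 10.55 to 12.11 with a median of 11.64, so that both overlapped the positive stomach samples. A4gnt ranged from 2.57 to 6.11, below the positive stomach samples. Tumour and normal samples differed in dissociation and sorting, and no test was made between them.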

How the data were processed

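RNA was labelled with biotin and hybridised to Affymetrix 1-colour mouse arrays. The authors deposited log2 signals of 45141 probe sets on 117 arrays, made with RMA in Partek 6.6 per the submitters' processing notes. Raw scans were not used here. Of the probe sets 28898 had 1 gene symbol in the platform annotation, 551 several and 15692 none. Where a gene had several probe sets, the brightest on average stood for it, which left 17097 genes, and symbols were updated through Entrez IDs with RefSeq's table for GRCm38.p6. Genes above the array median on at least 3 of 51 sorted samples (14081) entered limma 3.58.1 (R 4.3.3), with 12 group means of 6 tissues and a shared spread, at a Benjamini-Hochberg adjusted p under 0.05. A second contrast set the stomach difference against the mean of 5 other tissues. The script was tested on simulated data. The number of arrays limits precision.

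Members and gene lists were chosen with earlier results of these data known. Named were Prom1, the 12 largest called rises and falls without overlap, the 6 largest of each direction called against other tissues and in stomach, up to 6 called members of each list, and, where at most 1 was called, the 3 brightest. Another 15 genes were named after their values were seen, and uncalled or further called list members given as examples were also chosen after their values were seen. Predicted genes were passed over. Promoters and motif matches came from RefSeq.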

Additional observations from a re-analysis of the deposited data

Results flagged for a closer look

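The 4 negative samples were searched for a value far from the other 3, with a gap above Dixon's 95% critical value. Chance gives such a gap in about 1 in 20 groups, and 13 of the 150 named genes had one (8.67%), 8 of them through sample lqz239. In that sample Sp5 (4.48), Msln (6.35), Klf1 (5.54), Fgb (5.85), Fga (4.09) and Apoh (5.80) were above the other negative samples by this rule, and Stmn1 (9.20) and Dnajb9 (5.44) below. Fga and Sp5 lay close to the array median of that sample, and such levels can be background. The array of lqz239 was itself apart, with a mean correlation of 0.712 with the other stomach arrays, a Gapdh 3' excess of 2.17 and a median of 4.01. In sample lqz298 Smoc2 was low at 3.78 and the endothelial gene Plvap at 5.45. In sample lqz231 the muscle actin gene Acta2 was low at 4.15 and Gapdh high at 12.2, and in sample lqz331 the interferon-induced Gbp3 was high at 5.57. Of the called genes among these, Smoc2 and Sp5 were called without lqz239 too, and Dnajb9 was not.

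The stomach difference departed from the mean of prostate, lung, intestine, liver and uterus, by limma's test of the difference itself, for 6 named genes above it and 6 below. It was above by 6.42 for Rgs5, 5.27 for Lox, 5.03 for Wfdc18, 4.90 for Aqp1, 4.85 for Scara3 and 4.84 for Cacna2d1. It lay below, at -4.68 for Esrrg, -4.38 for Kcne2, -4.09 for Tnni3, -3.99 for Hamp2, -3.72 for B4galnt2 and -3.52 for Rnase1. For the rises, stomach positive samples were high and stomach negative samples low, and for the falls sample lqz231 was the highest of the 7.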

How the results depend on the processing

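The share of genes called between positive and negative stomach cells (3.17%) and in the comparison with other tissues (4.15%) depended on the samples and terms in the fit. With the stomach samples alone limma called 0% of genes (541 genes at an unadjusted p under 0.05), and without lqz239 as well 0.0071%, or 1 gene (1741), an alternative added after seeing the data; Prom1 then differed by 1.65 (adjusted p = 0.730) and 1.77 (adjusted p = 0.196). With all 117 samples the shares were 6.13% and 6.85% (Prom1 1.65, adjusted p = 0.522). Without arrays of an upper quartile under 6, which leaves 1 positive sample assumed to vary like the other groups, they were 1.85% and 2.49% (Prom1 1.97, adjusted p = 0.132). With the title number as a replicate block, although deviations of same-numbered samples correlated at only 0.13, 0.31, -0.03 and 0.04, they were 1.31% and 1.21% (Prom1 1.67, adjusted p = 0.110). With only negative samples lqz298 and lqz331, whose codes are above 290, the second share was 2.69% (Prom1 1.29, adjusted p = 0.148). Repeating quantile normalization gave 6.05% for the first, and the upper quartile as a covariate 9.86% and 6.73%. With array weights Prom1 differed by 1.48 (adjusted p = 0.110). Leaving out single samples gave 1.74% to 7.23% and 2.22% to 8.31%, and 1.29 to 1.89 for Prom1. The share of calls that were higher in positive cells was 72% with all samples, 39.6% without lqz239, 40.2% with codes above 290, 45.0% with array weights and 48.3% without arrays of a low upper quartile.

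Of 65 named genes called besides Prom1, calls were kept in 1158 of 1426 gene and setting pairs and lost in 268, of which the stomach samples alone made 65 and these without lqz239 another 64, with 0 reversed; 0 genes kept their call under all 22 settings. The mast cell protease Mcpt2, not called at 0.36, was at -2.08 with codes above 290 only. The cause of these shifts was not tested, beyond the fewer samples that some settings leave. Levels near the array median limit what a fall or a low level can show.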

Other observations

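Sex-linked transcripts varied within both stomach groups. Xist, expressed from the inactive X chromosome, had 8.92, 10.6 and 10.8 in positive samples lqz326, lqz330 and lqz332, against 10.4, 11.9, 11.3 and 10.5 in negative samples lqz231, lqz239, lqz298 and lqz331. The Y-linked gene Eif2s3y had 7.80, 3.54 and 5.88 in the same positive samples, against 6.6, 2.85, 2.88 and 7.72 in the negative samples. Xist was thus well above the array median on all 7 arrays, and Eif2s3y was above it in lqz326, lqz332, lqz231 and lqz331. Kdm5d, also Y-linked, had 6.92, 3.72 and 5.98 in the positive samples, against 5.36, 5.07, 3.63 and 6.30 in the negative samples. Kdm5d was thus above the array median in lqz239 too, where Eif2s3y was not. Y-linked Uty had 4.58, 2.87 and 3.42, against 4.37, 3.21, 2.71 and 5.0, and was under the array median in lqz239. The labels give neither the sex nor the number of animals behind a sample, and the part of sex in the differences was not tested.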
